A study of Homo sapiens with 8 samples.

Results

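The genes described here are KDR, the VEGF ligand genes VEGFA and VEGFB, the neuropilin genes NRP1 and NRP2, and the adhesion gene PECAM1, measured in HCCLM3 cells, a human hepatocellular carcinoma line of high metastatic potential. They were taken by symbol from a list of 7, of which 6 are among the 11818 genes of the table; the seventh, VEGFC, was not analysed here. The list was chosen by their role and by values of this comparison, with KDR known to be higher and PECAM1 lower in the silenced cells. For that reason the siRNA against NC difference of these 6 genes is described with its size and standard error and is not tested. Poly(A)-selected RNA was sequenced in 4 libraries called siRNA, with the genotype circPTK2 knock down, from cells transiently transfected with an siRNA against the circular RNA circPTK2, and in 4 libraries called NC, with the genotype WT. The labels neither expand NC nor mention a control siRNA in those cells. Nor do they tie libraries to separate cultures. A p-value below is therefore set against the variation among these 8 libraries, and that variation may be technical only. The question of the study was which signals downstream of circPTK2 change when it is silenced.

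KDR encodes VEGF receptor 2, the receptor tyrosine kinase through which VEGF-A drives endothelial proliferation, migration and permeability. VEGF-B binds VEGF receptor 1 and the neuropilins. Neuropilins 1 and 2 are co-receptors with short cytoplasmic tails that bind both VEGF isoforms and class 3 semaphorins. PECAM1, also called CD31, is a homophilic adhesion molecule of endothelial cells, platelets and leukocytes. In liver, KDR and PECAM1 are best known from sinusoidal and vascular endothelium, while hepatocytes and hepatocellular carcinoma cells secrete VEGF-A.

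Depth, as reads summed over the genes of the table, was 28077305 to 32532669 in the siRNA libraries and 37087203 to 43512175 in the NC libraries. Values are reads divided by a scaled library size, called scaled reads below. The NC libraries fall into pairs, replicates 1 with 2 and 3 with 4. Mitochondrially encoded genes, for example, took 4.39% to 5.59% of the values in the siRNA libraries, against 5.32% and 5.01% in NC replicates 1 and 2 and 1.96% and 2.19% in NC replicates 3 and 4. The 6 genes are therefore given with and without each pair, and a call of another named gene is given so where a pair decides it. The host gene PTK2 stood at 204 to 219 scaled reads in the siRNA libraries and at 161 to 227 in the NC libraries, which describes its linear mRNA and not the silenced circular RNA.

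The start of KDR lies on chromosome 4 of GRCh38, on the minus strand, and the gene runs from 55078259 to 55125595. The 250 bases before its RefSeq start (GRCh38.p14), at chr4:55125596-55125845, are shown because KDR differed most of the 6 genes; capitals mark matches to GGGCGG, the GC box, on either strand.
KDR: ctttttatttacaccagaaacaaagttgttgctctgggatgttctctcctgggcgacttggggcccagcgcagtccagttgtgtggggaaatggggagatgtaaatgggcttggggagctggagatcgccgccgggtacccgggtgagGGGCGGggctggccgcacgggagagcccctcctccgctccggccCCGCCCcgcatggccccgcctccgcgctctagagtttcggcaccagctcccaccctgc
The window holds 2 such matches, the first 102 bases before the start on the strand of the gene and the second 58 bases before it on the other strand, and GC content is 65.2%. Of the 35116 RefSeq promoter windows of this length, 42.6% hold at least 1 match. The window has no match on either strand to GGAAG (a core of ETS factor sites, in 65.1% of windows) GATAA (a core of GATA factor sites, in 20.4%), or ACGTG and GCGTG (cores of hypoxia response elements, in 18.5% and 32.2%). A match or its absence describes these letters only.

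KDR was 4.72-fold higher in the siRNA libraries than in the NC libraries. Its values were 122, 124, 110 and 95.0 scaled reads in siRNA replicates 1 to 4, against 26.7, 24.0, 28.5 and 16.6 in NC replicates 1 to 4. The lowest siRNA library lay more than 3 times above the highest NC library, so the groups did not overlap. The means were 113 ± 13.5 in siRNA libraries and 23.9 ± 5.23 in NC libraries (SD, n = 4 each), a log2 difference of 2.21 with an SE of 0.17, on the log2(value + 1) scale used throughout. Counting error was small beside this spread, with 2627 to 3824 reads on KDR in the siRNA libraries and 674 to 1313 in the NC libraries. In bulk RNA, a change in the number of cells with a transcript and a change in its amount per cell cannot be told apart. The size of the KDR difference was passed by few genes: 98.6% of the 11812 genes tested had a smaller absolute log2 difference. The difference was of like size against either NC pair, 2.32 without NC replicates 1 and 2 and 2.11 leaving out NC replicates 3 and 4.

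VEGFA, the main KDR ligand, showed no common direction. It stood at 132, 125, 137 and 125 scaled reads in siRNA replicates 1 to 4, against 295, 331, 52.3 and 42.5 in NC replicates 1 to 4. All siRNA libraries lay between the NC pairs, 2.41-fold below the mean of NC replicates 1 and 2 and 2.74-fold above the mean of NC replicates 3 and 4. The group means were 130 ± 5.82 in siRNA libraries and 180 ± 154 in NC libraries (SD, n = 4 each), and the mean and the log2 difference of 0.089 (SE 0.65) differed in sign. Without NC replicates 1 and 2 the log2 difference was 1.44 (SE 0.095), and leaving out NC replicates 3 and 4 it was -1.26 (SE 0.080). The VEGFA difference between the groups therefore takes its sign from the NC libraries used. The mitochondrial share of reads given above was also higher in NC replicates 1 and 2 than in NC replicates 3 and 4; its part in the VEGFA values was not tested.

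Of the 6 genes VEGFB had the smallest pooled SD within groups, 0.24 on the log2(value + 1) scale. Its values were 26.2, 26.7, 26.4 and 27.3 scaled reads in siRNA replicates 1 to 4, against 26.2, 20.1, 25.98 and 36.4 in NC replicates 1 to 4. The siRNA libraries lay inside the range of the NC libraries, and the log2 difference was 0.0030 with an SE of 0.16. It was -0.20 without NC replicates 1 and 2 and 0.21 with NC replicates 3 and 4 left out. The SD was 0.488 in siRNA libraries and 6.74 in NC libraries, so a shift of the size of that NC spread could not be seen here.

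**Figure D1:**
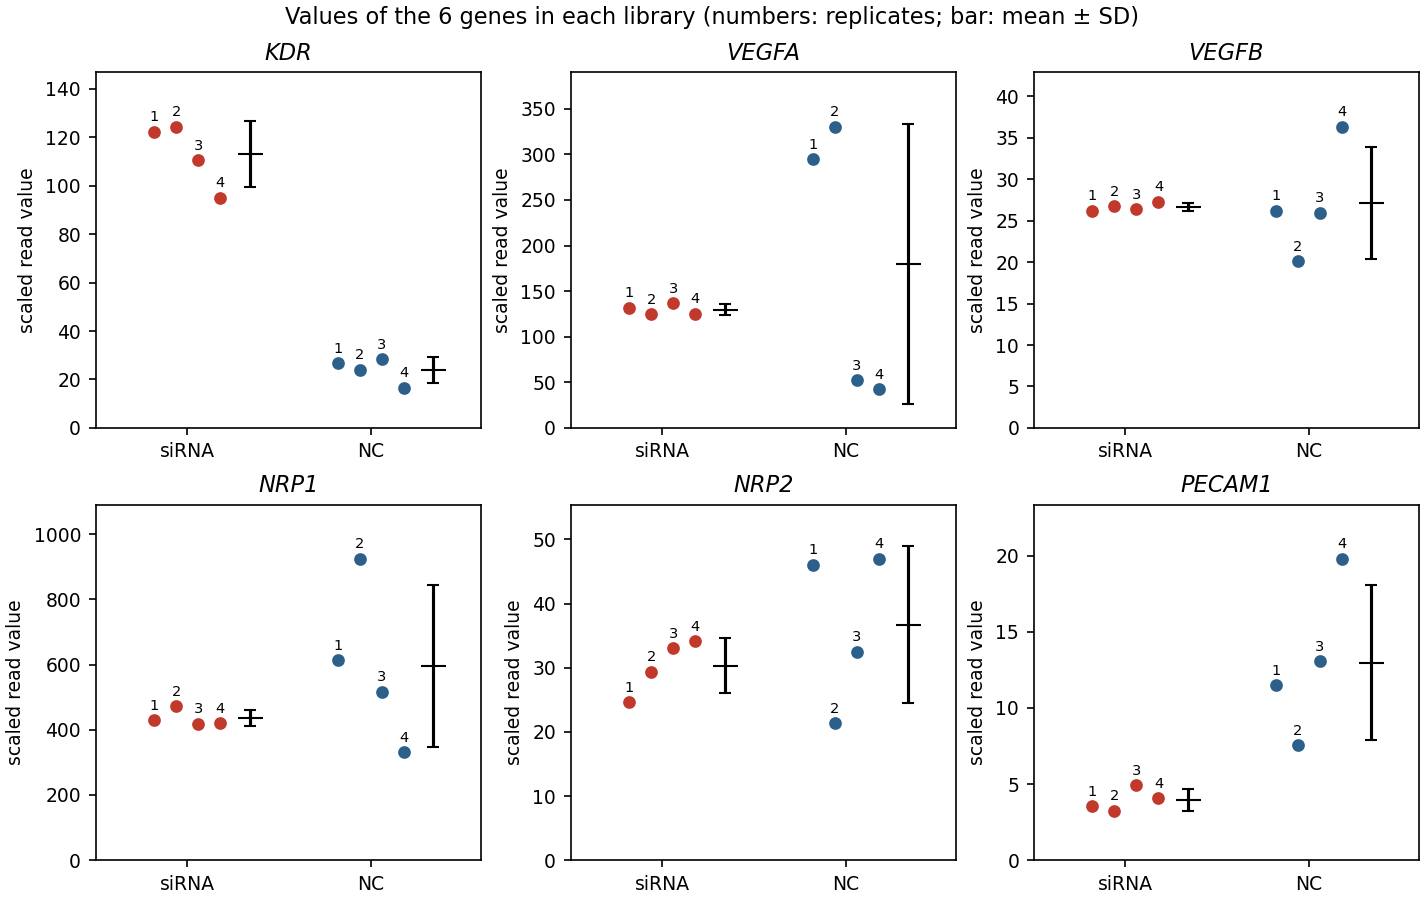
Scaled reads (vertical axis, from 0, own scale per gene) of KDR, VEGFA, VEGFB, NRP1, NRP2 and PECAM1 in the siRNA libraries (left) and NC libraries (right); points are libraries with their replicate number and the bar is the mean ± SD of 4. KDR lies at 95.0 to 124 in siRNA libraries and at 16.6 to 28.5 in NC libraries, PECAM1 at 3.25 to 4.93 and 7.53 to 19.8, and the 4 siRNA values of VEGFA lie between the NC pairs.

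NRP1, the neuropilin that presents VEGF-A to KDR, was the most abundant of the 6 genes by scaled reads. It had 429, 473, 419 and 421 scaled reads in siRNA replicates 1 to 4, against 614, 925, 517 and 331 in NC replicates 1 to 4. NC replicates 1 to 3 lay above every siRNA library and NC replicate 4 below them. The means were 435 ± 25.3 in siRNA libraries and 597 ± 248 in NC libraries (SD, n = 4 each), a log2 difference of -0.36 with an SE of 0.26. It was 0.071 without NC replicates 1 and 2, -0.79 leaving out NC replicates 3 and 4, and -0.61 without NC replicate 4 alone, so its size and sign depend on the NC libraries.

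NRP2, which pairs with VEGF receptor 3 in lymphatic endothelium, had 24.6, 29.4, 33.0 and 34.2 scaled reads in siRNA replicates 1 to 4, against 46.1, 21.4, 32.5 and 47.0 in NC replicates 1 to 4. The groups overlapped, and here NC replicates 1 and 4 were the high ones, which is not the split seen in VEGFA. The log2 difference was -0.22 with an SE of 0.24. Single libraries moved it, to -0.087 without NC replicate 1, -0.45 without NC replicate 2, -0.078 without NC replicate 4 and -0.12 without siRNA replicate 1. It was -0.37 without NC replicates 1 and 2 and -0.063 with NC replicates 3 and 4 left out. NC replicate 2 had the most NRP1 and the least NRP2 of the 8 libraries, at 49.0 times as much NRP1 as NRP2 per kilobase of the principal transcript, against 7.98 to 18.03 in the other NC libraries and 14.0 to 19.7 in the siRNA libraries.

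PECAM1 was 3.28-fold lower in the siRNA libraries. Its values were 3.56, 3.25, 4.93 and 4.08 scaled reads in siRNA replicates 1 to 4, against 11.49, 7.53, 13.05 and 19.8 in NC replicates 1 to 4. The groups did not overlap, although the highest NC value was more than 2 times the lowest. The means were 3.96 ± 0.735 in siRNA libraries and 13.0 ± 5.11 in NC libraries (SD, n = 4 each), with a log2 difference of -1.43 and an SE of 0.26. PECAM1 was a low gene, with 100 to 160 reads in the siRNA libraries and 280 to 804 in the NC libraries, and a mean above that of 19.5% of genes in the table. The log2 difference was -1.80 without NC replicates 1 and 2 and -1.07 leaving out NC replicates 3 and 4, and a pseudocount of 5 gave -0.96, since a larger pseudocount shrinks the difference of a low gene.

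KDR and PECAM1 were the 2 of 6 genes whose groups did not overlap, KDR higher and PECAM1 lower in siRNA libraries. Over the 11812 genes tested, the groups did not overlap in 43.3%, and 42.5% passed a limma adjusted p under 0.05. Because the list was made with these directions known, nothing is read from the count. The median log2 difference of the 6 genes was -0.11, against 0.012 over all genes tested.

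**Figure D2:**
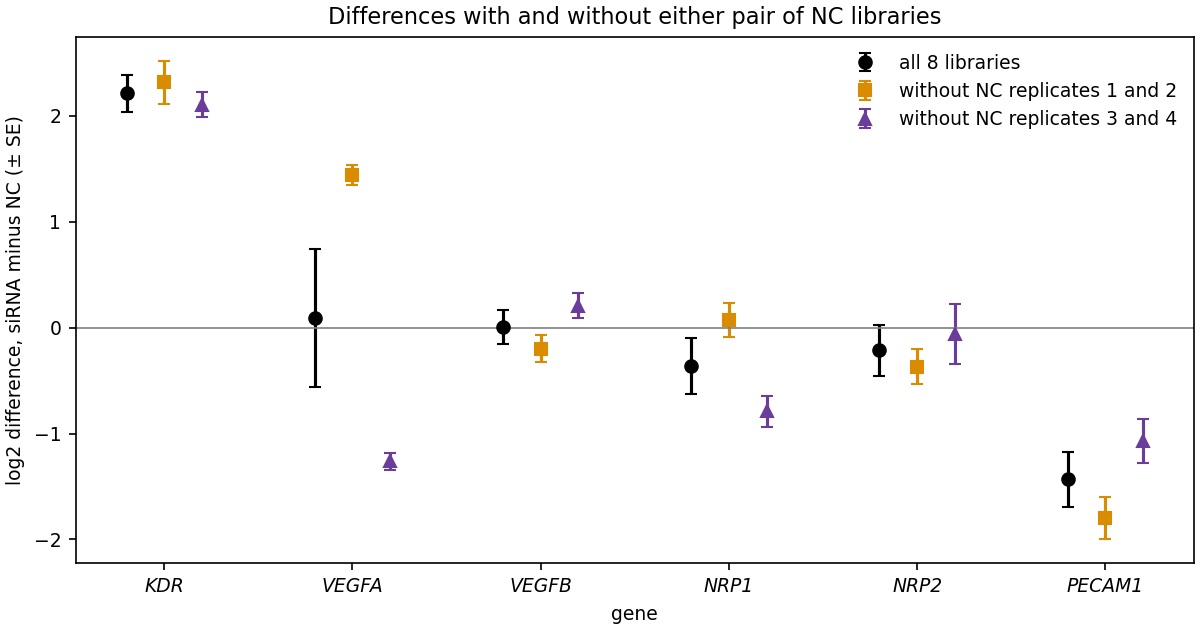
Log2 difference, siRNA minus NC, on the log2(value + 1) scale (vertical axis) for each of the 6 genes, with all 8 libraries (circles), without NC replicates 1 and 2 (squares) and leaving out NC replicates 3 and 4 (triangles); bars are ± SE. KDR stays between 2.11 and 2.32 and PECAM1 between -1.80 and -1.07, while VEGFA lies at 1.44 without one pair and at -1.26 without the other.

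Levels of different genes were compared per kilobase, using the annotated principal transcript of each gene. In the siRNA libraries the order was VEGFA (108 ± 4.86 scaled reads per kb), NRP1 (74.0 ± 4.30), VEGFB (19.3 ± 0.353), KDR (18.7 ± 2.23), NRP2 (4.55 ± 0.645) and PECAM1 (0.579 ± 0.108; SD, n = 4 each). VEGFB and KDR do not differ beyond their spread there. In the NC libraries KDR stood at 3.95 ± 0.863 scaled reads per kb beside NRP2 at 5.51 ± 1.83, and these 2 overlapped. VEGFA in NC libraries, at 150 ± 128 per kb, could not be ordered against NRP1 at 101 ± 42.2. The place of VEGFA depends on the length used: its principal transcript is 1199 bases, whereas all its annotated exons together cover 14431 bases, which puts it at 8.99 ± 0.403 scaled reads per kb in the siRNA libraries, below VEGFB at 17.3 ± 0.316. Over all exons KDR in NC libraries stood at 3.65 ± 0.796 and NRP2 at 2.64 ± 0.878, so the order of these 2 also turns with the length.

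A ratio of 2 genes in the same library does not depend on how libraries were scaled. Per kilobase of principal transcript, KDR amounted to 0.277, 0.256, 0.256 and 0.219 times NRP1 in siRNA replicates 1 to 4, against 0.0423, 0.0252, 0.0534 and 0.0487 times in NC replicates 1 to 4. Receptor message per co-receptor message was thus higher in every siRNA library than in any NC library. The ratio of KDR to VEGFA, receptor to ligand, was 0.150 to 0.197 in the siRNA libraries, against 0.0144 to 0.0179 in NC replicates 1 and 2 and 0.0773 to 0.108 in NC replicates 3 and 4. The groups did not overlap in this ratio either, although VEGFA itself overlapped. KDR was listed with its rise known, so neither separation is a result apart from the KDR difference.

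The 3 genes whose profile over the 8 libraries was nearest to that of KDR were SYDE2, the inhibitory G protein alpha subunit gene GNAI1 and the neuron navigator gene NAV1. Likeness was the root mean square difference of centred log2 values, over 10255 genes with a mean of at least 5, and was 0.207, 0.227 and 0.250 in that order, against a median of 1.15. GNAI1 had 89.2, 95.0, 70.5 and 61.3 scaled reads in siRNA replicates 1 to 4, against 19.4, 20.7, 21.5 and 18.1 in NC replicates 1 to 4, with siRNA replicates 3 and 4 below replicates 1 and 2, as for KDR.

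VEGFA was followed most closely by GDF15, a secreted stress-responsive cytokine gene, MAP1LC3B, which encodes the autophagosome protein LC3B, and AKNA, with root mean square differences of 0.112, 0.129 and 0.132. GDF15 had 473, 455, 407 and 463 scaled reads in siRNA replicates 1 to 4, against 1038, 1269, 201 and 146 in NC replicates 1 to 4. Its siRNA libraries, too, lay between the NC pairs. PECAM1 was nearest to PPP6R2, a protein phosphatase 6 regulatory subunit gene (0.0907), HEXIM1, an inhibitor of transcription elongation (0.116), and ADI1, an enzyme gene of methionine salvage (0.142). PPP6R2 had 17.0, 17.0, 22.7 and 20.6 scaled reads in siRNA replicates 1 to 4, against 53.8, 40.3, 59.1 and 81.8 in NC replicates 1 to 4, the highest in NC replicate 4 as for PECAM1. These genes were picked for their likeness, so their differences are not tested.

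**Figure D3:**
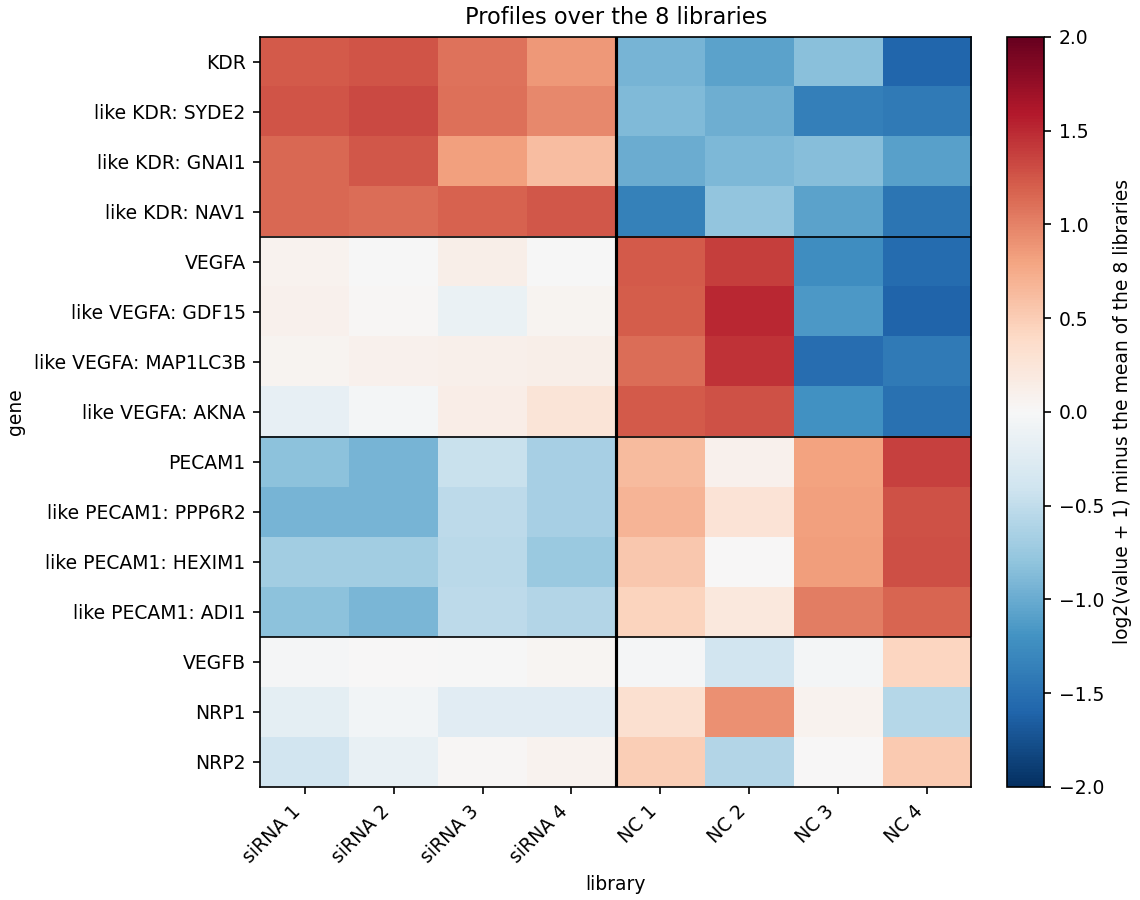
Centred log2(value + 1) (colour, red above and blue below the mean of the 8 libraries) of KDR, VEGFA and PECAM1, each followed by its 3 most similar genes, and of VEGFB, NRP1 and NRP2 (rows), in siRNA libraries (left) and NC libraries (right). The KDR block separates the groups, the VEGFA block separates NC replicates 1 and 2 from NC replicates 3 and 4 with the siRNA libraries near the mean, and the PECAM1 block is lowest in the siRNA libraries.

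The values of KDR and PECAM1 were set beside those of the measured genes within 5 Mb. Both genes were chosen with their differences known, and these are larger in size than those of 98.6% and 95.1% of all genes tested, so their place among neighbours is a description. The nearest measured genes on either side of KDR were CHIC2, 1014 kb away, and SRD5A3, 221 kb away. They had log2 differences of -0.0095 and 0.060 and neither passed the threshold (limma adjusted p = 0.988 and 0.746). CHIC2 turned with the NC pair, at 0.77 without NC replicates 1 and 2 (limma adjusted p = 0.00619) and -0.79 with NC replicates 3 and 4 left out (limma adjusted p = 0.00512). Of the 21 measured genes within 5 Mb of KDR, 0 had a larger difference than KDR. Their median was 0.22, against 0.15 over 424 genes of chromosome 4. Among these 21 genes 5 rose and 1 fell (28.6%, against 42.5% of all genes). PECAM1 lies on chromosome 17 from 64319415 to 64413776. Its neighbours TEX2 and MILR1 differed in the opposite direction, with log2 differences of 0.81 (limma adjusted p = 0.0255) and 0.76 (limma adjusted p = 0.0226), calls that single libraries decided. For TEX2 the adjusted p was 0.0524 to 0.0656 without any 1 siRNA library, 0.0591 without NC replicate 1 and 0.0577 with equal library totals, and for MILR1 it was 0.0509 to 0.0632 without siRNA replicates 1, 2 or 3 or NC replicate 4, each left out in turn. The 62 measured genes within 5 Mb of PECAM1 had a median of 0.022, and 0 of them was lower than PECAM1.

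Around VEGFA and NRP1 the median neighbour was lower in the siRNA libraries, and so was the median gene of the whole chromosome, at -0.20 over 608 genes of chromosome 6 and -0.36 over 455 genes of chromosome 10. No test was made of the neighbourhood against the chromosome, and 20.8% of all genes tested fell. Within 5 Mb of VEGFA, on chromosome 6 from 43770184 to 43786487, the median log2 difference of 65 genes was -0.54, with 8 rising and 35 falling, while VEGFA itself was at 0.089. The nearest genes, MRPS18A and C6orf223, both fell (log2 differences -0.71 and -1.41, limma adjusted p = 0.00121 and 0.0023). Within 5 Mb of NRP1, on chromosome 10 from 33177492 to 33336262, the median of 21 genes was -0.56, with 3 rising and 11 falling, and NRP1 was at -0.36. ITGB1, the integrin gene beside NRP1, had a log2 difference of -0.33 (limma adjusted p = 0.202), which was -0.022 without NC replicates 1 and 2 (limma adjusted p = 0.870) and -0.65 with NC replicates 3 and 4 left out (limma adjusted p = 0.000577). The polarity gene PARD3 on the other side fell (log2 difference -0.56, limma adjusted p = 0.000773). The nearest neighbours of VEGFB, DNAJC4 and FKBP2, had log2 differences of -0.42 and 0.13, and those of NRP2, RAPH1 and INO80D, 0.31 and -0.28, with none of the 4 past the threshold over all 8 libraries. Without NC replicates 1 and 2, RAPH1, which lies 2147 kb from NRP2, passed at 0.98 (limma adjusted p = 0.0012). With NC replicates 3 and 4 left out, INO80D passed at -0.64 (limma adjusted p = 0.00448) and DNAJC4 at -0.60 (limma adjusted p = 0.0106).

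**Figure D4:**
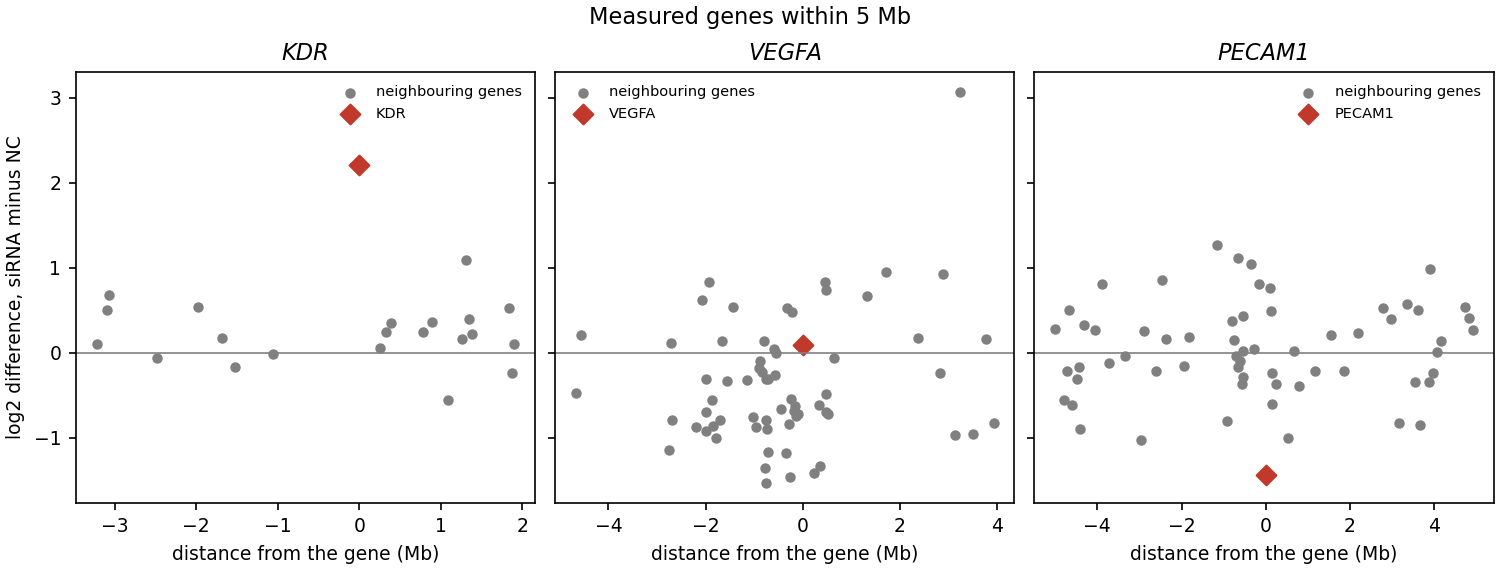
Log2 difference, siRNA minus NC, on the log2(value + 1) scale (vertical axis) of measured genes against their distance in Mb from KDR, VEGFA and PECAM1 (one panel each); grey points are neighbouring genes and the red diamond is the named gene. KDR lies above all 21 neighbours and PECAM1 below all 62, and the neighbours of VEGFA have a median of -0.54.

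Genes around the receptor system were followed in 8 lists arranged by role. Together they hold 161 measured genes, of which 34 rose and 34 fell at a limma adjusted p under 0.05, close to the 21.7% of all genes tested that rose and the 20.8% that fell. A ninth list, the other ligands and receptors PGF, VEGFD, FLT1 and FLT4, was not analysed here. Without NC replicates 1 and 2 the 8 lists gave 119 calls (73.9%), 70 higher and 49 lower, where 65.9% of all genes passed. With NC replicates 3 and 4 left out they gave 100 (62.1%), where 57.8% of all genes passed. The counts of single lists in these 2 fits, below, stand against those shares of all genes. Without any 1 siRNA library 32.6% to 34.8% of all genes passed, so list counts in those fits stand against a lower share.

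Class 3 semaphorins compete for the neuropilins, and plexins carry their signal. Of 11 measured genes of this group 2 rose and 4 fell. The decreases numbered 2 without siRNA replicate 1, 2 or 3 and without NC replicate 2 or 4, each left out in turn. SEMA3C, a secreted ligand of NRP1 and NRP2, had 75.9, 83.3, 76.3 and 73.6 scaled reads in siRNA replicates 1 to 4, against 14.8, 11.8, 19.4 and 18.1 in NC replicates 1 to 4. It rose 4.83-fold without overlap (log2 difference 2.22, SE 0.15, limma adjusted p = 2.5e-05). The adhesion gene L1CAM, whose product associates with NRP1, rose to 12.3 ± 2.70 in siRNA libraries, against 2.95 ± 1.88 in NC libraries (limma adjusted p = 0.00294). SEMA3D, another neuropilin ligand, fell to 0.346 ± 0.138 scaled reads in siRNA libraries, against 1.95 ± 0.382 in NC libraries (SD, n = 4 each; limma adjusted p = 0.000628), and PLXND1, a plexin gene of vascular patterning, fell 1.80-fold (limma adjusted p = 0.00152).

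Genes that process VEGF ligands or set their binding to matrix and heparan sulphate gave 6 increases and 5 decreases among 21. SULF2, an extracellular enzyme that removes 6-O-sulphate from heparan sulphate, had 39.6, 38.4, 38.3 and 35.5 scaled reads in siRNA replicates 1 to 4, against 0.920, 1.53, 2.56 and 2.12 in NC replicates 1 to 4. This was a 21.3-fold rise from low NC values (log2 difference 3.84, SE 0.19, limma adjusted p = 5.08e-06). The matrix metalloprotease genes moved in both directions. MMP7 rose 5.55-fold (limma adjusted p = 0.000109) and MMP2 11.1-fold (limma adjusted p = 0.000206). MMP2 was low in the NC libraries, at 0.316 and 0.323 scaled reads in replicates 1 and 2 and 2.17 and 1.72 in replicates 3 and 4. The size of its fold therefore depends on the NC libraries used. MMP14, a membrane protease that activates MMP2, fell 3.57-fold (limma adjusted p = 2.29e-05). It had 26.7 ± 2.71 scaled reads in siRNA libraries, against 95.4 ± 11.9 in NC libraries (SD, n = 4 each).

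Downstream of KDR, 14 of 61 measured signalling genes rose and 11 fell. The MAP kinase kinase gene MAP2K2 fell 3.23-fold, with 58.6 to 63.9 scaled reads in siRNA libraries, against 161 to 234 in NC libraries (log2 difference -1.66, limma adjusted p = 3e-05). The adaptor gene SHC1 fell 2.28-fold (limma adjusted p = 3.45e-05) and the calcineurin subunit gene PPP3CB 2.84-fold (limma adjusted p = 3.28e-05). With NC replicates 1 and 2 left out, the list gave 22 increases and 21 decreases (70.5%, against 65.9% of all genes). Leaving out NC replicates 3 and 4, it gave 21 increases and 14 decreases (57.4%, against 57.8% of all genes).

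Among 16 genes of receptor trafficking 3 rose and 5 fell. The early endosome gene RAB5A rose 1.96-fold (limma adjusted p = 0.000809) and the epsin gene EPN2 1.54-fold (limma adjusted p = 0.006), whereas the recycling endosome gene RAB11A fell 1.70-fold (limma adjusted p = 0.000136). The myosin gene MYO6, which moves endocytic vesicles, fell 1.33-fold (limma adjusted p = 0.0164), but not past the threshold without siRNA replicate 1 (limma adjusted p = 0.0517). The list gave 4 or 5 calls without any 1 siRNA library and 13 without NC replicates 1 and 2 (81.2%, against 65.9% of all genes).

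**Figure D5:**
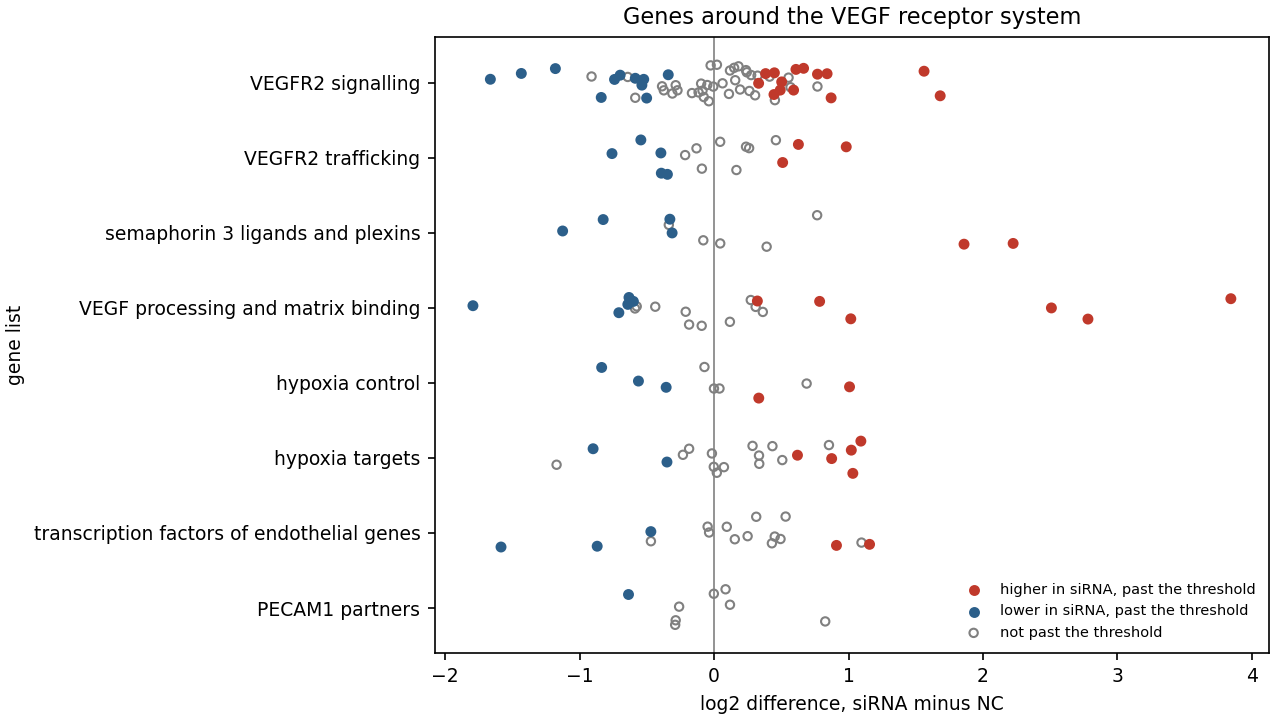
Log2 difference, siRNA minus NC, on the log2(value + 1) scale (horizontal axis) of every measured gene of the 8 lists (rows); filled red and blue points passed a limma adjusted p under 0.05 and were higher or lower in siRNA libraries, and open points did not pass. Increases and decreases number 34 each, and the point farthest right is SULF2 at 3.84.

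VEGFA is a classical target of hypoxia-inducible factors, so genes of that control were followed. Of 9 control genes 2 rose and 3 fell. HIF1A, the oxygen-regulated subunit, rose 1.26-fold (467 to 504 scaled reads in siRNA libraries, 356 to 404 in NC libraries; limma adjusted p = 0.00922). HIF1AN, the asparaginyl hydroxylase that restrains it, fell 1.49-fold (limma adjusted p = 0.000993), and CITED2, a transcriptional regulator that competes with it for its coactivators, rose 1.94-fold (limma adjusted p = 0.00621). ARNT, its partner subunit, fell 1.29-fold (limma adjusted p = 0.0171), which was lost without siRNA replicate 2 (limma adjusted p = 0.0593). Without siRNA replicate 2 the list held 3 calls (33.3%, against 32.6% of all genes). With NC replicates 1 and 2 or NC replicates 3 and 4 left out it held 8 (88.9%, against 65.9% and 57.8%).

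Of 20 hypoxia target genes 5 rose and 2 fell, 35.0% against the 42.5% of all genes. The demethylase gene KDM3A rose 1.82-fold (limma adjusted p = 0.00145) and the lipase inhibitor gene ANGPTL4 rose 2.62-fold (limma adjusted p = 0.00248), while the mitophagy receptor gene BNIP3 fell 1.88-fold (limma adjusted p = 0.000169) and the glycolytic gene PGK1 1.28-fold (limma adjusted p = 0.0136). The count was 4 without siRNA replicate 2 or 4. It was 16 (80.0%, against 65.9% of all genes) without NC replicates 1 and 2, and 12 (60.0%, against 57.8%) with NC replicates 3 and 4 left out.

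Transcription factors known for endothelial gene control gave 2 increases and 3 decreases among 17 measured genes. HHEX, a homeobox gene of early liver and endothelium, fell 1.87-fold (limma adjusted p = 0.000809). SOX18, an endothelial SOX factor gene, fell to 0.201 ± 0.103 scaled reads in siRNA libraries, against 2.75 ± 1.16 in NC libraries (SD, n = 4 each; limma adjusted p = 0.00116). The ETS factor gene ELF1 rose 1.84-fold (limma adjusted p = 0.00475) and FOXO1 2.16-fold (limma adjusted p = 0.0109). The count was 8 without NC replicate 2 (47.1%, against 46.9% of all genes), 13 without NC replicates 1 and 2 (76.5%, against 65.9%) and 10 with NC replicates 3 and 4 left out (58.8%, against 57.8%).

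Of 8 measured partners of PECAM1, 0 rose and 1 fell, 12.5% against the 42.5% of all genes. CD99, which acts with PECAM1 in leukocyte passage across endothelium, fell 1.59-fold, with 77.3 to 89.9 scaled reads in siRNA libraries, against 106 to 174 in NC libraries (limma adjusted p = 0.0141). The count was 2 without NC replicate 1 or without NC replicate 2 and 3 (37.5%) with NC replicates 1 and 2 or NC replicates 3 and 4 left out.

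KDR and PECAM1 are endothelial markers, so other markers were read in the same libraries. Of 23 further endothelial markers 5 had values: ESAM, MMRN2, EGFL7, ICAM2 and S1PR1. The other 18, among them the defining genes CDH5, TEK, TIE1 and VWF, were not analysed here; every gene in the table was above 1 in at least 3 libraries. Summed over the 5, the markers stood at 60.8 to 88.1 scaled reads in the siRNA libraries and at 27.0 to 40.8 in the NC libraries. Most of the sum was ESAM in the siRNA libraries, but in NC replicate 4 ESAM made up 11.7 of 30.8. ESAM, a junction adhesion gene of endothelium and platelets, had 73.8, 66.9, 51.2 and 50.4 scaled reads in siRNA replicates 1 to 4, against 13.7, 21.3, 22.3 and 11.7 in NC replicates 1 to 4, a 3.51-fold rise (limma adjusted p = 0.000455). MMRN2 fell 3.87-fold (limma adjusted p = 0.00468) and EGFL7 1.75-fold (limma adjusted p = 0.0103), like PECAM1. ICAM2 rose 2.34-fold (limma adjusted p = 0.0451). That call was lost without any 1 siRNA library, without NC replicate 1 and without NC replicate 2 (limma adjusted p = 0.0613 to 0.11), and it was lost without NC replicates 1 and 2 (limma adjusted p = 0.0922). EdgeR on recovered reads and DESeq2 did not make it (adjusted p = 0.129 and 0.0744). The part of other cells in the KDR and PECAM1 values was not tested.

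Blood cell markers were low in number, with 2 of 13 measured. CD68, which many epithelial lines also express, had 76.3 to 140 scaled reads in siRNA libraries and 52.3 to 91.0 in NC libraries, ITGAM 4.198 to 6.47 in siRNA libraries and 3.38 to 7.91 in NC libraries, and neither passed (limma adjusted p = 0.154 and 0.67). With NC replicates 3 and 4 left out, ITGAM passed at -0.52 (limma adjusted p = 0.0299). Of 14 liver cell markers 12 were measured. The keratin genes were abundant, with KRT18 at 1034 to 1122 scaled reads in siRNA libraries and 824 to 1167 in NC libraries. Secretory markers were low. ALB, the albumin gene, had 26.8 to 38.9 scaled reads in siRNA libraries and 7.80 to 10.6 in NC libraries, and AFP had 1.01 to 2.80 in siRNA libraries and 2.89 to 4.92 in NC libraries. Of the 12, 3 rose and 5 fell, 66.7% against the 42.5% of all genes. ALB (limma adjusted p = 9.57e-05), the antiprotease gene SERPINA1 (limma adjusted p = 2.53e-05) and the nuclear receptor gene HNF4A (limma adjusted p = 0.000901) rose. Among those that fell were the transferrin gene TF (limma adjusted p = 0.000276) and the apolipoprotein gene APOB (limma adjusted p = 0.00202). KRT8 and AFP fell too (limma adjusted p = 0.0207 and 0.0209), calls that were lost without siRNA replicate 1 (limma adjusted p = 0.0546 and 0.0523). Dropping siRNA replicate 2 or 3 also cost KRT8 its call (limma adjusted p = 0.0501 and 0.0503). For AFP, dropping siRNA replicate 3 or 4 did the same (limma adjusted p = 0.0517 and 0.0538). An NC pair decided AFP as well: against NC replicates 1 and 2 only, it was at -0.55 (limma adjusted p = 0.0772). The sum of the 12 was 2779 to 2840 scaled reads in siRNA libraries and 3102 and 3036 in NC replicates 1 and 2 and 5693 and 5176 in NC replicates 3 and 4, most of it from the keratin genes.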

How the data were processed

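The deposited table gives 1 value per gene symbol and library. Its values are a scaled read signal: the authors divided the reads of a gene by a scaled library size, as the values show, each being a whole multiple of 1 step per column within 0.02 reads (100% of values). In 4 columns the smallest value was 2 steps. The build hg38 and the tools HTSeq 0.12.4, HISAT2, FastQC, Trimmomatic, edgeR and DESeq2 appear per the submitters' processing notes. Which tool did what, and whether counting used strand, stands in none of the sources used here. Annotated genes overlap the spans of KDR, VEGFA, NRP1, NRP2 and PECAM1, introns included, and 0 of them has values in the table. Overlap of exons was not examined, so whether any of their reads were counted to the named gene cannot be told. Gene-level values do not separate isoforms.

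The values were tested with limma 3.58.1 (trend and robust, R 4.3.3) on log2(value + 1) with the group as the only term, keeping the 11812 genes that reached 1 in 4 or more libraries, with Benjamini-Hochberg adjustment over all of them. Folds are ratios of group means. The procedure was also run on simulated reads of independent libraries, without the split of the NC libraries into pairs. That run cannot show how the split affects the calls. Members and gene lists were chosen with earlier results of these data known. Named from each list were up to 4 genes with the smallest p past the threshold, and for KDR, VEGFA and PECAM1 the 3 nearest profiles and, for every member, the nearest genes; 2 genes that this rule names are not reported here. Alternatives were edgeR 4.0.16 and DESeq2 1.42.0 on recovered reads, equal library totals, pseudocounts of 0.1 and 5, other filters, a threshold of 0.01, a replicate block, and leaving out libraries. Positions and lengths came from GENCODE on GRCh38, matched by symbol for 11806 of 11818 genes, and promoters from RefSeq on GRCh38.p14, which held 3 of the 6 members.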

Additional observations from a re-analysis of the deposited data

Results flagged for a closer look

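Among the genes named here, 148 sets of 4 libraries were checked for a single library far from the other 3, and 3 stood apart (2.03%, where chance gives about 1 set in 20). ELF1 was at 99.1 scaled reads in siRNA replicate 3, against 92.4 to 93.5 in the other siRNA libraries. CHIC2, a measured gene 1014 kb from KDR, was at 12.9 in siRNA replicate 1, against 8.72 to 9.11 in the others. The transferrin gene TF was at 13.5 in NC replicate 3, against 22.1 to 23.1 in the other NC libraries. None of the 6 genes of the KDR list was among them.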

How the results depend on the processing

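The log2 differences of KDR (2.04 to 2.32) and PECAM1 (-1.80 to -0.96) kept their sign under every alternative run. The other filters and the replicate block cannot change the difference of a gene. Both genes were chosen with their direction known, so the kept sign is a description. PECAM1 moved by more than the spread between libraries with a pseudocount of 5 (-0.96), and VEGFA did so without NC replicates 1 and 2 (1.44) and leaving out NC replicates 3 and 4 (-1.26). VEGFA was -0.47 with edgeR and -0.49 with DESeq2 on recovered reads, and its main value of 0.089 is within 1 SE of 0. Over all genes, 5015 passed the threshold, 7782 without NC replicates 1 and 2, 6830 leaving out NC replicates 3 and 4 and 3034 at an adjusted p under 0.01; edgeR called 5002 and DESeq2 5689. Leaving out 1 library at a time gave 3853 to 5535 genes, and 48 to 79 in the pathway lists. In those lists 68 genes passed, 119 without NC replicates 1 and 2 and 37 at an adjusted p under 0.01. Of the 161 genes, 65 passed with the same sign and 14 with opposite signs in the 2 fits without NC replicates 1 and 2 and leaving out NC replicates 3 and 4. GDF15 (-1.35), MAP1LC3B (-1.19) and AKNA (-1.20) turned in sign leaving out NC replicates 3 and 4; they were picked for likeness to VEGFA, so this follows from the choice and is no test. CHIC2 turned to 0.77 without NC replicates 1 and 2. The causes were not tested. Same-numbered libraries correlated in their deviations from the group means by -0.068, 0.15, -0.066 and 0.16. With 4 libraries per group and the NC libraries split in pairs, these low values cannot show whether the numbers pair the samples. The replicate numbers are the same in both groups, so a replicate block cannot change the differences of the 6 genes. With that block 4546 genes and 65 pathway genes passed. Among the genes listed the calls of NFATC3, YES1, PTPRB, USP8, PLXNB2, PLXNA2, NR2F2, ICAM2 and AFP were then lost. Scaling to equal totals moved the median of all genes by -0.036. Among the 6 genes PECAM1 had the fewest reads, 100 in its lowest library; SOX18, SEMA3D, APOB and SERPINA1 were lower still, with SERPINA1 listed at 0 in NC replicate 3 and SOX18, at 0.0723 in siRNA replicate 4, under the value of 3 reads there (0.108).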
